A study of Mus musculus with 2 samples.

Results

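The genes of the insulin-like growth factor (IGF) system were followed in ureters of mouse embryos at stage E14.5. They comprised the ligands Igf1 and Igf2, the receptors Igf1r and Igf2r, and the binding proteins Igfbp2, Igfbp3, Igfbp4, Igfbp5, Igfbp6 and Igfbp7. A gene was taken as a member where its symbol named a probe that is not a control in both array files. This gave 10 genes and 15 probes, of 21978 genes tested and 39429 probes before the filter on dim probes. All 15 probes were well above background in all 4 RNA channels.

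IGF1 and IGF2 are secreted growth factors that signal through the receptor tyrosine kinase IGF1R, which acts on growth and survival through the PI3K and MAPK pathways. IGF2R carries no kinase and clears IGF2 by taking it into the cell for breakdown. The binding proteins hold the ligands outside the cell, which can block, store or deliver them, and IGFBP7 binds them only weakly. In the embryo both ligands drive growth, and mesenchymal tissues are among their sources.

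The RNA labelled Bmp4cKO came from embryos with the genotype Tbx18(cre/+);Bmp4(fl/fl), and the RNA labelled control from Tbx18(+/+);Bmp4(fl/?) embryos, all on the NMRI strain. The cre sits at 1 copy of Tbx18, so Bmp4, a secreted growth factor of the ureteric mesenchyme, is to be deleted only where Tbx18 is active. The control carries no cre and at least 1 floxed Bmp4 allele, with the other allele not given. Each of 2 two-colour arrays compared 1 RNA labelled Bmp4cKO with 1 RNA labelled control, with the dyes swapped: replicate 1 is labelled female and replicate 2 male. Dye orientation and labelled sex therefore change together between the arrays and cannot be told apart. The labels do not say how many embryos an RNA sample holds. The p-values rest on the spread between these 2 arrays, which may be technical. For each gene, limma combined its own spread with a variance shared over all genes.

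The gene named in the genotype was examined first. Processed signals are the scanner software's values in arbitrary units, whereas log2 ratios were computed from the spot values after a separate background correction and loess, so they need not equal the ratio of the signals printed beside them. The Bmp4 probe (mm9 chr14:47003391-47003450) had processed signals of 29491 and 27393 units in the RNA labelled Bmp4cKO, against 3613 and 1973 units in the RNA labelled control, for replicates 1 and 2. In each replicate it was thus higher where the label names a deletion of Bmp4, with a log2 ratio of 3.38 ± 0.48 (SD, n = 2; limma, adjusted p = 0.016). Whether this probe lies in the floxed part is not known here. Another Bmp4 probe was below the background limit in all 4 channels. Tbx18, which loses 1 copy to the cre by the label, had a log2 ratio of 0.97 ± 0.17 (SD, n = 2; adjusted p = 0.040). The authors' deposited table gives Bmp4 a signed fold of -8.16 on replicate 1 and -13.9 on replicate 2, the opposite sign to the ratios here. Every direction below follows the dye labels, so "higher" means the same direction as Bmp4, and all directions turn if the labels of the 2 RNAs are exchanged.

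The 2 RNAs also differed in other genes. On replicate 2, labelled male, 0 of 5 Y-linked probes exceeded background in the RNA labelled Bmp4cKO and 4 of 5 in the RNA labelled control, so the RNA labelled Bmp4cKO goes against its sex label. On replicate 1, labelled female, 0 of 5 were above background in either RNA. Within replicate 2 this Y-linked difference cannot be told apart from the labelled genotype. Of 12 urothelial markers 8 were called higher and 0 lower, with summed signals of 98495 and 103110 units in the RNA labelled Bmp4cKO and 45892 and 50398 units in the RNA labelled control. Of 10 smooth muscle markers 3 were called higher and 1 lower (40323 and 60386 units against 29545 and 28619 units), and of 8 ureteric mesenchyme markers 2 were called higher and 0 lower. Of 12 kidney markers 0 were called higher and 5 lower (48184 and 49947 units against 51057 and 68265 units), and of 8 nerve markers 0 were called higher and 3 lower (5003 and 4328 units against 7152 and 7863 units). Over all genes 0.887% were called higher and 1.02% lower at an adjusted p under 0.05 in limma. At an unadjusted p under 0.05, 7.15% of all genes were higher and 7.37% lower. Endothelial and leukocyte lists had no marker past the adjusted threshold in limma, with 5 of 10 higher and 1 of 8 lower at an unadjusted p under 0.05. No marker on these lists was below background in every channel. Upk3b, called higher on the urothelial and mesothelial lists, exceeded background in only 3 channels. It had 93.4 and 212 units in the RNA labelled Bmp4cKO, against 23.8 and 40.1 units in the RNA labelled control. Its call is therefore not read as a result. The counts of 8 urothelial and 3 mesothelial markers called higher include Upk3b and are not read as results either. Mesothelial markers had 3 of 6 called higher and 1 lower, of which Krt19 and Upk3b also stand on the urothelial list and Wt1 on the kidney list, leaving Msln as the call of this list alone, and erythroid markers had 0 of 7 called and 1 at an unadjusted p under 0.05. These values come from the same RNAs as those of the IGF genes below, and their part in the IGF results was not tested. In dissected tissue, fewer cells of a type and less RNA per cell cannot be told apart.

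Of the 10 IGF genes 3 passed the test, against 1.91% of all genes. Igf1 was higher in the RNA labelled Bmp4cKO, and Igfbp2 and Igfbp6 were lower. Their promoters are shown as the sequence context of the 3 called genes. Each line gives the 250 bases before the gene's start (RefSeq, build GRCm38.p6, plus strand), at chr10:87860861-87861110 for Igf1, at chr1:72824230-72824479 for the first of 2 listed starts of Igfbp2, and at chr15:102143936-102144185 for Igfbp6. Capitals mark motifs bound by the SMAD proteins that carry BMP signals: CAGAC, searched on both strands and so also as GTCTG, and GGCGCC, which reads alike on both strands. No match overlapped another.
Igf1: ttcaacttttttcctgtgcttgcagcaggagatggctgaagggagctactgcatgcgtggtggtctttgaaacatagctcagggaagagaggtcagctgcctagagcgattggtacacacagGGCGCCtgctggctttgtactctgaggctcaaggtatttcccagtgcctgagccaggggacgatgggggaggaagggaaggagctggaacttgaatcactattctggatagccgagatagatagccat
Igfbp2: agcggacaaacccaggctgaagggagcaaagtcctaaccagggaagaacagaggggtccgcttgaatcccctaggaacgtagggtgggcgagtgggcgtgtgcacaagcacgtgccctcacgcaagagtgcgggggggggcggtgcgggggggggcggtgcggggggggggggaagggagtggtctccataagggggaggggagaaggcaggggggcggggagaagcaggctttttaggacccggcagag
Igfbp6: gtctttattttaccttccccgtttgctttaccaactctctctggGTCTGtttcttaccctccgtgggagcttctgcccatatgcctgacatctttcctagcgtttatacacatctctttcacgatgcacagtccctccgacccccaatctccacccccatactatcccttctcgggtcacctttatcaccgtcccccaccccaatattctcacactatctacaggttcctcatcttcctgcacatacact
Igf1 held 1 GGCGCC, Igfbp6 held 1 GTCTG, and neither motif occurred in the window of the first Igfbp2 start, while that of its second start held 1 GTCTG. Of 32851 such windows in the RefSeq table, 42.2% held CAGAC or GTCTG and 9.59% held GGCGCC. The matches describe these letters, and binding was not measured.

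Over all 21978 genes, 1.91% passed an adjusted p of 0.05 in limma, 0.887% as higher and 1.02% as lower. Among the 10 IGF genes 1 was called higher and 2 lower. Both arrays gave the same sign for 9 of the 10 IGF genes, 5 higher and 4 lower, against 58.8% of all genes. At the probe used for each gene, Igfbp6 alone among them changed by at least 2-fold on both arrays, as 1.20% of all genes did; the Igfbp2 probe not used did so too. The median log2 ratio was 0.20 over the 10 IGF genes and -0.0092 over all genes.

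**Figure D1:**
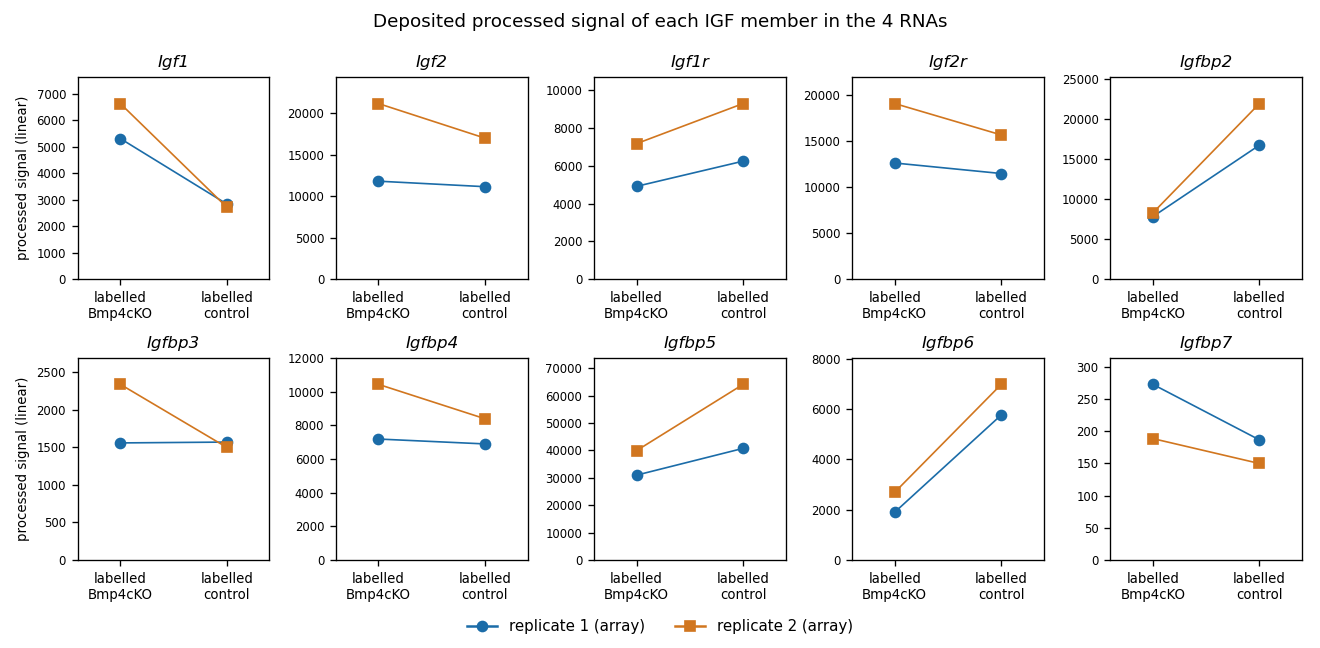
Processed signal (arbitrary units) of the probe used for each of the 10 IGF genes, with 1 point per array for the RNA labelled Bmp4cKO and for the RNA labelled control. Points are to be compared within a gene only, since probes differ in brightness.

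Igf1, the ligand that acts with growth hormone after birth and is made in many embryonic tissues, was the only IGF gene called higher. Its probe (mm9 chr10:87399581-87399640, plus strand) had processed signals of 5306 and 6626 units in the RNA labelled Bmp4cKO, against 2836 and 2715 units in the RNA labelled control. Both values in the RNA labelled Bmp4cKO lay above both in the RNA labelled control. The log2 ratios were 0.88 on replicate 1 and 1.25 on replicate 2, with a mean of 1.07 ± 0.26 (SD, n = 2; 2.09-fold; 95% interval 0.70 to 1.43; limma, adjusted p = 0.041). Of all genes, 1.73% changed further in either direction.

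The 5 Igf1 probes did not give 1 value. The 4 probes assigned to transcript variant 1 had mean log2 ratios between 0.68 and 1.08, from 0.72 to 0.91 on replicate 1 and from 0.65 to 1.31 on replicate 2. The probes at chr10:87393561-87393620 and chr10:87393581-87393640 share 40 bases and are not independent. The probe assigned to variant 2 (chr10:87378456-87378515) had 1494 and 1325 units in the RNA labelled Bmp4cKO, against 1173 and 1203 units in the RNA labelled control. Its log2 ratios were 0.41 on replicate 1 and 0.09 on replicate 2, with a mean of 0.25. The variant 1 probes exceeded it by 0.31 to 0.50 on replicate 1 and by 0.56 to 1.22 on replicate 2, and this difference was not tested. With the mean of all 5 probes in place of the brightest, Igf1 had a log2 ratio of 0.83 and an adjusted p of 0.052, and its call was lost; over all 13 alternative settings the adjusted p lay between 0.0038 and 1.00.

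Igf2, the main fetal growth factor of the family and an imprinted gene expressed from the paternal copy, did not pass the test. Its probe (mm9 chr7:149839661-149839720, minus strand) had processed signals of 11793 and 21133 units in the RNA labelled Bmp4cKO, against 11131 and 16971 units in the RNA labelled control. Within each array the RNA labelled Bmp4cKO was the higher, but the arrays differed from each other by more than the RNAs did, and the groups overlap. The log2 ratios were 0.22 and 0.21 on replicates 1 and 2, with a mean of 0.21 ± 0.0096 (SD, n = 2; 95% interval -0.08 to 0.51; adjusted p = 0.51). H19, the imprinted non-coding RNA beside Igf2, had log2 ratios of -0.51 on replicate 1 and 1.31 on replicate 2 (adjusted p = 0.79), and 0.08 and -0.17 at a second probe. The H19 and Igf2 probes lie 78.1 kb apart on the minus strand.

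Igf1r, the signalling receptor, had ratios below 0 in both replicates but did not pass the test. Its probe (mm9 chr7:75378461-75378520, plus strand) had 4921 and 7185 units in the RNA labelled Bmp4cKO, against 6255 and 9308 units in the RNA labelled control. The groups overlap across the arrays, while within each array the RNA labelled Bmp4cKO was the lower. Both replicates gave similar log2 ratios, -0.44 and -0.36, with a mean of -0.40 ± 0.06 (SD, n = 2; 95% interval -0.70 to -0.10; adjusted p = 0.21, unadjusted p = 0.019).

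Igf2r, the clearance receptor for IGF2 and itself imprinted, with expression mainly from the maternal copy in mouse, was measured on more spots than any other IGF gene. Its probe, which the file places at mm9 chr17:12875253-12875263 on the minus strand, was printed 10 times per array, of which 9 spots were used on each. Its signals were 12604 and 19053 units in the RNA labelled Bmp4cKO, against 11464 and 15649 units in the RNA labelled control. The spots gave log2 ratios of 0.13 to 0.26 on replicate 1 and of 0.18 to 0.23 on replicate 2, all on the side of the RNA labelled Bmp4cKO. The mean was 0.20 ± 0.0048 (SD, n = 2; 95% interval -0.09 to 0.50; adjusted p = 0.54), so repeated spots agreed closely while the test was not passed. The small SDs of Igf2 and Igf2r come from 2 values each after loess, where the processed signals gave log2 ratios of 0.08 and 0.32 for Igf2 and of 0.14 and 0.28 for Igf2r, and limma's test draws on a variance shared over all genes.

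**Figure D2:**
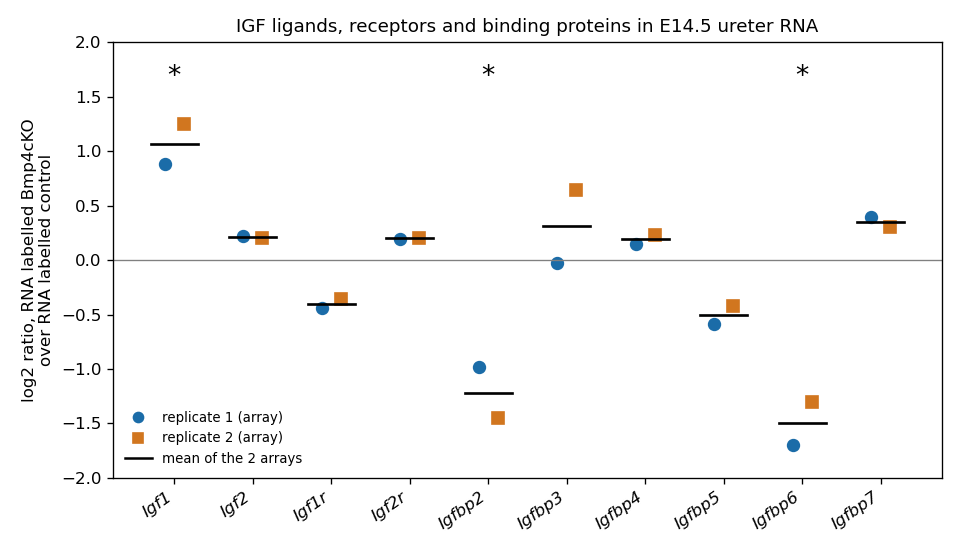
Log2 ratio (RNA labelled Bmp4cKO over that labelled control) for the 10 IGF genes, ordered by role. Each array gives 1 point, and a line marks the mean of the 2 arrays. An asterisk marks an adjusted p under 0.05 in limma. Igf1 stands above 0, Igfbp2 and Igfbp6 below it, and Igfbp3 has its 2 arrays at -0.02 and 0.65.

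Among the 6 binding protein genes 2 were called lower, Igfbp6 and Igfbp2, and 0 higher, against 1.02% and 0.887% of all genes. Igfbp6, a binding protein with a preference for IGF2, had the largest log2 difference of the 10 IGF genes. Its probe (mm9 chr15:101979852-101979911, plus strand) had 1899 and 2690 units in the RNA labelled Bmp4cKO, against 5759 and 6974 units in the RNA labelled control. Each value in the RNA labelled Bmp4cKO was well under both values in the RNA labelled control. On the log2 scale the ratios were -1.69 and -1.30, with a mean of -1.50 ± 0.28 (SD, n = 2; 2.82-fold lower; 95% interval -1.87 to -1.13; adjusted p = 0.024). Of all genes, 0.60% changed further.

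Igfbp2, a binding protein abundant in fetal tissues, was lower at both of its probes. The probe used (mm9 chr1:72898677-72898736, plus strand) is shown because it holds an open reading frame: in 1 frame its 60 bases are 20 codons, with 0 stop codons before the last, TAA, which is set in capitals. Its place in the transcript was not looked up.
Igfbp2 probe: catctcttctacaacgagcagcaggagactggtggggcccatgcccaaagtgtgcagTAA
It had 7829 and 8292 units in the RNA labelled Bmp4cKO, against 16759 and 21962 units in the RNA labelled control. The groups do not overlap. Replicates 1 and 2 gave log2 ratios of -0.98 and -1.45, with a mean of -1.22 ± 0.33 (SD, n = 2; 2.32-fold lower; 95% interval -1.61 to -0.82; adjusted p = 0.038), and 1.23% of all genes changed further. The other probe (chr1:72898813-72898872) had 5012 and 7452 units in the RNA labelled Bmp4cKO, against 11423 and 14651 units in the RNA labelled control. Its log2 ratios were -1.08 and -1.07 after loess, and -1.19 and -0.98 from the processed signals, so its position beyond 2-fold on replicate 2 depends on the normalization.

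Igfbp5, which binds extracellular matrix and is often found in mesenchyme and muscle, lies next to Igfbp2 on chromosome 1. Its probe (mm9 chr1:72904829-72904888, minus strand) is 6.09 kb from the Igfbp2 probe used, on the other strand. It had 30965 and 39921 units in the RNA labelled Bmp4cKO, against 40730 and 64082 units in the RNA labelled control. The values in the RNA labelled Bmp4cKO were lower on each array and below both values of the other RNA. After loess the log2 ratios were -0.59 on replicate 1 and -0.42 on replicate 2, while the processed signals gave -0.40 and -0.68; the mean after loess was -0.50 ± 0.12 (SD, n = 2; 95% interval -0.82 to -0.19; adjusted p = 0.14, unadjusted p = 0.0087), which did not pass the test. The 2 neighbours had the same sign on both arrays, and only Igfbp2 was called; the difference between them was not tested.

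Igfbp3, the main carrier of IGFs in blood after birth, was the only IGF gene with opposite signs on the arrays. Its probe (mm9 chr11:7106594-7106653, minus strand) had 1557 and 2335 units in the RNA labelled Bmp4cKO, against 1568 and 1497 units in the RNA labelled control. Replicate 1 showed almost equal signals, and replicate 2 a higher one in the RNA labelled Bmp4cKO. The log2 ratios were -0.02 and 0.65, with a mean of 0.31 ± 0.47 (SD, n = 2; 95% interval -0.17 to 0.80; adjusted p = 0.57). Igfbp1, whose probe lies 4.09 kb away on the other strand, had a mean log2 ratio of -0.39 and was not called; it is named here as a neighbour, chosen after its value was seen.

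Igfbp4, a binding protein cut by the protease PAPP-A to release IGF, did not pass the test. Its probe (mm9 chr11:98913334-98913393, plus strand) had 7189 and 10439 units in the RNA labelled Bmp4cKO, against 6899 and 8394 units in the RNA labelled control. The groups overlap, and both arrays gave ratios slightly above 0. Per array, the log2 ratio was 0.15 and 0.23, with a mean of 0.19 ± 0.05 (SD, n = 2; 95% interval -0.11 to 0.49; adjusted p = 0.58).

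Igfbp7, a secreted protein with weak affinity for IGFs, had low signals, at least 7.2 times the local background in every channel. Its probe (mm9 chr5:77778271-77778330, minus strand) had 273 and 189 units in the RNA labelled Bmp4cKO, against 187 and 150 units in the RNA labelled control. Each array gave a higher value in the RNA labelled Bmp4cKO, and the lowest of these lay just above the highest in the RNA labelled control. The log2 ratios were 0.40 and 0.30, with a mean of 0.35 ± 0.07 (SD, n = 2; 95% interval 0.05 to 0.65; adjusted p = 0.27, unadjusted p = 0.031), which did not pass the test.

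**Figure D3:**
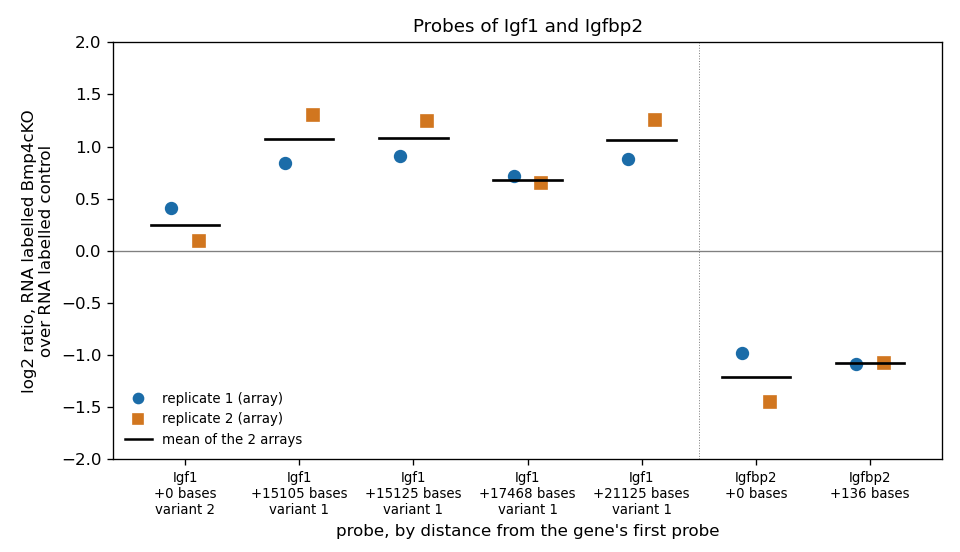
Log2 ratio (RNA labelled Bmp4cKO over that labelled control) for each probe of the genes with more than 1 probe, Igf1 and Igfbp2, with 1 point per array. The Igf1 variant 2 probe lies nearest to 0, with 0.41 and 0.09, and both Igfbp2 probes lie near or below -1.

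The genes around the ligands and receptors were described by their counts. The list of 15 accessory and release genes held other binding or carrier proteins. It also held proteases, stanniocalcins and mRNA-binding proteins that act on the ligands or their carriers. Of these genes 13 were measured and 0 passed the test in either direction. At an unadjusted p under 0.05 in limma 4 were higher and 2 lower (Igfbp1 and Stc2), against 7.15% and 7.37% of all genes. The median log2 ratio of the list was 0.13. Pappa, the protease PAPP-A, had log2 ratios of 0.69 and 0.59 (mean 0.64, adjusted p = 0.078). Stc2, a stanniocalcin that inhibits PAPP-A, had -0.89 and -0.73 (mean -0.81, adjusted p = 0.053). Signals of Stc2 were low, 78.4 and 79.6 units in the RNA labelled Bmp4cKO, against 173 and 164 units in the RNA labelled control. From the processed signals its mean log2 ratio was -1.09, so the size of the difference depends on how low signals are corrected.

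Of 32 genes of receptor signalling all were measured and 0 passed the test in either direction, with 1 higher and 3 lower at an unadjusted p under 0.05, against 7.15% and 7.37% of all genes, and a median log2 ratio of -0.07. Both arrays gave a positive ratio for 5 of them and a negative one for 12, a share near the 58.8% of all genes with the same sign on both. Pik3r1, the p85 regulatory subunit of PI3K, had log2 ratios of -0.87 and -0.72 (mean -0.79, adjusted p = 0.055). Irs2, an adaptor bound by the active receptor, had -0.80 and -0.36 (mean -0.58, adjusted p = 0.17). Grb10, an imprinted adaptor that restrains the receptor, had -0.25 and 0.15 (mean -0.05, adjusted p = 0.94).

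Of 6 CCN family genes, whose products share the IGF-binding domain by sequence, 4 were measured and 0 passed the test, with 2 higher and 0 lower at an unadjusted p under 0.05, against 7.15% and 7.37% of all genes. Ccn2, connective tissue growth factor, had log2 ratios of 0.71 and 0.85 (mean 0.78, adjusted p = 0.056), and Ccn3 had 0.36 and 0.91 (mean 0.63, adjusted p = 0.17). Of 9 insulin and relaxin ligands and relaxin receptors 7 were measured. The relaxin receptor Rxfp1 was the only one past the threshold, but it passed the filter on dim probes only through the RNA labelled control, so neither its call nor the list's count is read as a result. Rxfp1 had 52.5 and 28.8 units in the RNA labelled Bmp4cKO, against 156 and 153 units in the RNA labelled control; in the RNA labelled Bmp4cKO it cleared background in only 1 replicate. Its mean log2 ratio was -1.30 after loess and -1.99 from the processed signals, so the size of the difference depends on how these low signals are corrected.

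**Figure D4:**
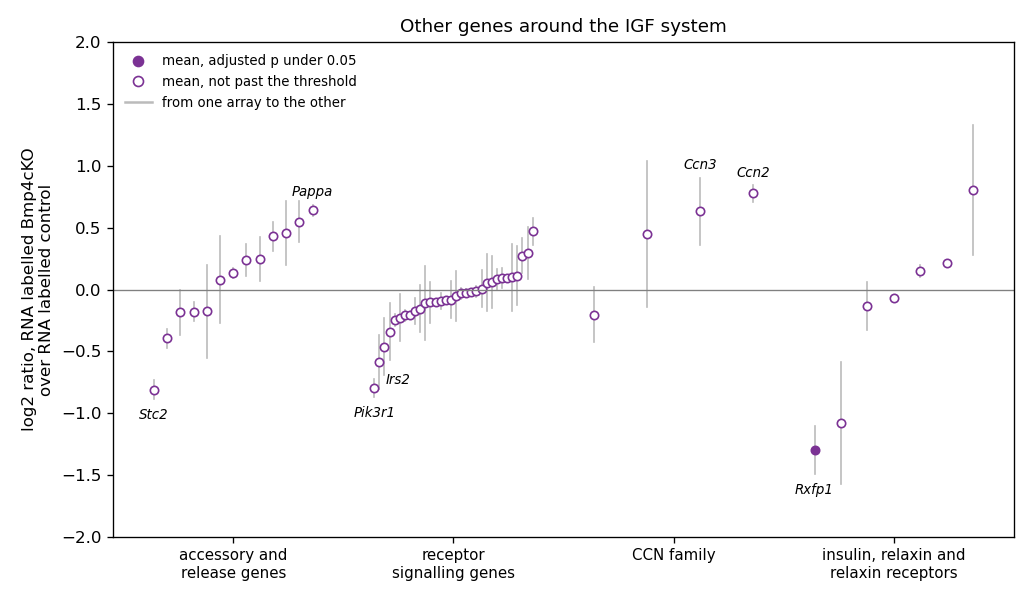
Mean log2 ratio (RNA labelled Bmp4cKO over that labelled control) for the measured genes of 4 other IGF-related lists, sorted within each list, with a grey line between the 2 arrays. Filled points passed an adjusted p of 0.05, which only Rxfp1 did (a probe not above background in 1 of 2 RNAs labelled Bmp4cKO), and named genes follow the naming rule.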

How the data were processed

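RNA of 2 ureter samples per group was measured on 2 two-colour arrays, read as ratios within each array. Per the file headers, the authors used Agilent Feature Extraction 10.7.3.1 to quantify spots, and probe coordinates refer to mm9. Spot means and local backgrounds were deposited as linear intensities. Processed signals, also intensities, are the software's background-corrected and dye-normalized values per the file headers, and its deposited log ratio is on a log10 scale, red over green. In the authors' value table each probe has a score that, set against the deposited log ratio, proved to be a signed fold change (size within 0.01 log2 for 99.6% of probes or more), with sign red over green on replicate 1 and green over red on replicate 2, opposite to the dye labels as used here; its centring is not stated and its medians are 1.

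Here, backgrounds were corrected with normexp (offset 50), arrays normalized by loess with control spots at weight 0, and ratios turned by the dye labels to give Bmp4cKO-labelled over control-labelled RNA (limma 3.58.1, R 4.3.3). A gene was its brightest probe kept, that is, passing the scanner's background flag in both replicates of at least 1 of the 2 RNAs. The fit used lmFit and eBayes with Benjamini-Hochberg adjustment over 21978 genes; both arrays share slide and scan time, so neither was a batch. The number of arrays limits the precision. The arrays pair the RNAs by design. Of 39429 probes 31001 were named through the RefSeq table, and 8428 kept the array's name. Median spot signal was 7.18 to 15.8 times background per channel, 69.3 to 74.6% of spots were above it and 0 were saturated. The procedure was tested on simulated data.

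The members, lists and tests were chosen with earlier results of these data known. Named were all members, Bmp4 and Tbx18, H19 and Grb10, and of each other IGF list every called gene or otherwise the 2 with the largest mean change. Alternatives covered background correction, normalization, filters, probe choice, prior and channel model.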

Additional observations from a re-analysis of the deposited data

Results flagged for a closer look

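Igfbp3 was marked because its 2 arrays pointed opposite ways: the log2 ratio (RNA labelled Bmp4cKO over that labelled control) was 0.65 on replicate 2, labelled male, and -0.022 on replicate 1, labelled female. The difference between the arrays was 0.67 on the log2 scale. It was not tested, since each array is 1 pair of RNAs, and dye orientation and labelled sex change with it. The RNAs of replicate 2 also differed in Y-linked probes above background, 0 of 5 in the RNA labelled Bmp4cKO and 4 of 5 in the other.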

How the results depend on the processing

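The call of Igf1 as higher held in 10 of 13 alternatives, and those of Igfbp2 and Igfbp6 as lower each held in 11. With median centring in place of loess 0 IGF genes were called higher and 0 lower in limma (3 at an unadjusted p under 0.05), and over all genes 0 higher and 0 lower (1760 unadjusted). With no normalization within the array, 0 IGF genes were called higher and 0 lower (0 unadjusted), and over all genes 0 higher and 1 lower (108 unadjusted); the genes at least 2-fold on both arrays were then 32 higher and 85 lower. With the mean of a gene's probes 0 IGF genes were called higher. Over the 13 alternatives that use both arrays the log2 ratio lay between 0.83 and 1.10 for Igf1, between -1.25 and -1.15 for Igfbp2 and between -1.51 and -1.46 for Igfbp6; single arrays gave 0.88 to 1.25, -1.45 to -0.98 and -1.69 to -1.30. The cause of the lost calls was not tested.

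Over all genes, 339 higher and 388 lower were called with plain background subtraction, 306 and 348 with an offset of 16, and 612 and 671 with an intensity trend in the prior, against 195 and 225. The scanner's processed signals gave 223 higher and 258 lower genes at 2-fold on both arrays. Accessory genes gave 1 lower call, Stc2, under subtraction, no background correction, offset 16, processed signals, no filter, robust prior and trend, and 1 higher, Pappa, under trend. Receptor signalling genes gave 1 lower call under subtraction, no background correction, offset 16, no filter and robust prior, and 2 under trend. CCN genes gave 1 higher call under subtraction, offset 16, no filter, robust prior and trend. The lower call of Rxfp1 was lost (0) under median centring, no normalization and a filter on all 4 channels, which leaves it untested, and the insulin and relaxin list gave 2 lower calls under trend and under separate channels with a dye term.

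Separate channels with no replicate block, where the array is not a pairing term, called 326 genes and the same numbers of IGF genes, 1 higher and 2 lower. On single arrays, a count chosen after seeing the data, the IGF genes at least 2-fold were 0 to 1 higher and 1 to 2 lower. Single-array log2 ratios changed sign against the mean for Igfbp3 (-0.022 to 0.65), H19 (-0.51 to 1.31) and Grb10 (-0.25 to 0.15).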
